A study of Homo sapiens
Rattus norvegicus and Homo sapiens with 10 samples.

Results

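The genes described here encode proteins of desmosomes and tight junctions, the contacts that hold neighbouring cells together and seal the space between them. They are 10 of the 62754 genes of the count table, taken by name: PKP2, PKP4, DSP, JUP, DSG2, DSC2 and DSC3 of the desmosome and its relatives, and CGN, CGNL1 and TJP1 of the tight junction. They were chosen by their values in recurrent against primary tumours, where PKP2 had stood out, so all values of that contrast are given as a description. The libraries came from U251N, an established human glioblastoma cell line, implanted into the brains of adult female athymic RNU/RNU rats, which cannot reject a human graft for lack of T cells. There were 3 primary tumours, never ablated, and 3 recurrent tumours, which regrew after ablation by laser interstitial thermal therapy (LITT) under diffusion-weighted imaging. The 3 controls are given as tumour-free: control replicate 1 was a graft that failed, and the other two were procedural. The last library was a culture of the line, kept outside the animal experiment. All tumours derive from 1 cell line. The labels do not state that each library is a separate animal, and p-values then measure only the spread between these libraries.

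In a desmosome, cadherins of the desmoglein (DSG) and desmocollin (DSC) families reach across to the next cell. Inside the cell they are held by the armadillo-repeat proteins plakoglobin (JUP) and the plakophilins, which join them to desmoplakin (DSP), the anchor of the intermediate filaments. At the tight junction, ZO-1 (TJP1) is the main scaffold below the membrane, and cingulin (CGN) and its relative paracingulin (CGNL1) tie that scaffold to actin and microtubules. In the brain, tight junctions are best known from blood vessel endothelium and the choroid plexus, and desmosomes from the arachnoid cells of the meninges.

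Of the 10 genes, 9 passed the filter on low counts and DSC3 did not. DSC3, a desmocollin of stratified epithelia, had 0 counts in each of the 6 tumours and the 3 controls and 1 count in the culture. With the limit for no counts set at 3, a level of 0.0755 to 0.148 CPM (counts scaled to a fixed library size) would have gone unseen in a tumour, counting error alone considered. Its neighbour and close relative DSC2, the desmocollin of heart and simple epithelia, had 246 to 576 counts in a tumour. The sequences of this pair are shown because the counts rest on telling them apart. The 100 coding bases where they are most alike lie in exon 15 of each gene on the minus strand of chromosome 18 (GRCh38), at chr18:31068921-31069020 for DSC2 and chr18:30996818-30996917 for DSC3. They are written 5′ to 3′, with capitals where the 2 differ.
DSC2: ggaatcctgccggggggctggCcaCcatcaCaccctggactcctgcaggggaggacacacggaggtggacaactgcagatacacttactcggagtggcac
DSC3: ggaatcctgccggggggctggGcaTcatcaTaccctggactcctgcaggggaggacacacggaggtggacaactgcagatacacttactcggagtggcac
In this window 97 of 100 bases are identical. Over the whole coding sequences the aligned bases were 73.2% identical, and the longest run without a difference was 80 bases. Of the 12295 stretches of 31 bases in the longest DSC2 transcript, 50 also occur in DSC3 and 203 occur in any other gene.

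Cingulin and paracingulin are the other pair of relatives whose counts are set against each other below. Their most similar 100 coding bases run over exons 16 to 18 of CGN at chr1:151535124-151535787 and over exons 14 to 16 of CGNL1 at chr15:57531772-57544480, both on the plus strand of GRCh38. Capitals again mark the bases that differ.
CGN: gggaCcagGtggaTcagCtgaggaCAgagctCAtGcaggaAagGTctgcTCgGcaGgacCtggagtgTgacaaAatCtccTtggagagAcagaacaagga
CGNL1: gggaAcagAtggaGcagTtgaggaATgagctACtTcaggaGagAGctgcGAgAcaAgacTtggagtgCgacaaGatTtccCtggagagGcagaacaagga
Here 78 of 100 bases are identical, the longest shared run in the coding sequences is 22 bases, and no stretch of 31 bases is shared. PKP2 and PKP4 likewise share none. PKP2 shares 615 of its 4272 stretches with a processed pseudogene on the same chromosome (ENSG00000256913.1), which held at most 1.19 counts in any library, against 415 to 964 for PKP2 in the tumours.

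On chromosome 18 the desmosomal cadherin genes stand in a row of 559 kb, in the order DSC3, DSC2, DSC1, DSG1, DSG4, DSG3 and DSG2. Only the second and the last had more than 10 counts over the 6 tumours together: 2207 for DSC2 (ENSG00000134755.18, 31058840 to 31102522, minus strand) and 11314 for DSG2 (ENSG00000046604.14, 31498043 to 31549008, plus strand). DSC1 and DSG1 had 3 counts each, DSG3 had 10, and DSG4 and DSC3 (ENSG00000134762.17, 30990008 to 31042815, minus strand) had 0. These neighbours with few or no counts are the cadherins of skin and other stratified epithelia, while DSG2 and DSC2 are the forms of simple epithelia and heart muscle. TTR, the transthyretin gene of the choroid plexus that follows DSG2 on the same strand, had 0 counts in all 10 libraries.

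**Figure D1:**
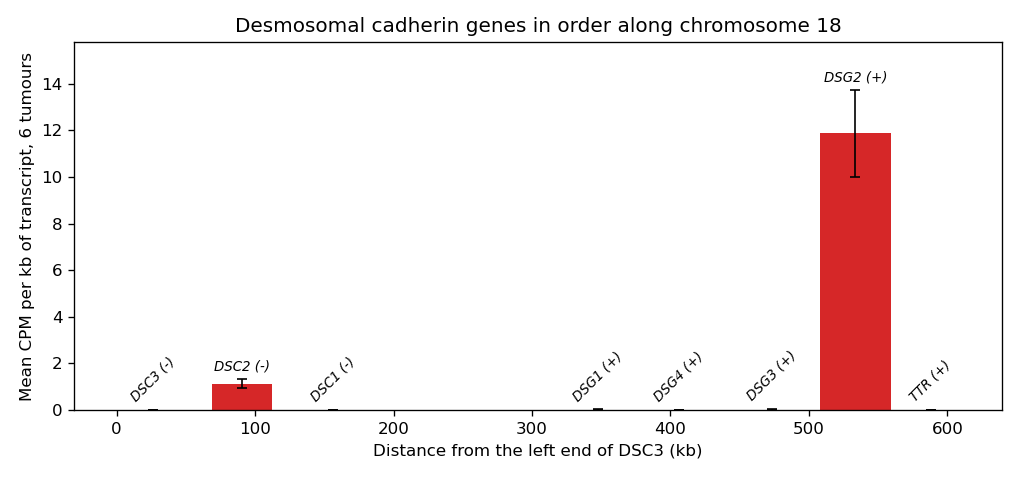
Mean level of each desmosomal cadherin gene and of TTR over the 6 tumours, in CPM per kilobase of the longest coding transcript, against its distance from the left end of DSC3; bars span the gene, whiskers run from the lowest to the highest tumour, and the sign gives the strand. DSG2, at a mean of 11.9, and DSC2, at 0.955 to 1.31, stand out from neighbours at or near 0.

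The remaining genes lie on 6 other chromosomes of GRCh38. PKP2 (ENSG00000057294.18) lies at chromosome 12, 32790745 to 32896840, on the minus strand, and PKP4 (ENSG00000144283.23) at chromosome 2, 158456964 to 158682879, on the plus strand. DSP (ENSG00000096696.16) is at chromosome 6, 7541575 to 7586717, plus strand, and JUP (ENSG00000173801.17) at chromosome 17, 41754604 to 41786931, minus strand. CGN (ENSG00000143375.15) is at chromosome 1, 151510510 to 151538692, plus strand. Chromosome 15 holds both CGNL1 (ENSG00000128849.11, 57375967 to 57550727, plus strand) and TJP1 (ENSG00000104067.17, 29699367 to 29968865, minus strand).

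Depth and purity differed between the libraries. The tumour libraries held 20321590 to 39714714 counts, the controls 1358753 to 4158124 and the culture 65058642. Reads sorted to the human graft made up 42.5% to 64.4% in primary and 29.4% to 42.7% in recurrent tumours, against 0.33%, 0.55% and 4.90% in the controls. Structural small RNA genes took 74.9% and 72.0% of the counts of control replicates 1 and 2, 23.9% in control replicate 3 and 4.26% to 10.7% in the tumours. Primary replicate 2 had the highest of these tumour shares and the lowest RNA integrity number of the 6, 7.8. All 8 markers of the line, among them vimentin (VIM), nestin (NES), GFAP and CD44, were well counted in every tumour, with a summed level of 7683 to 9239 CPM. Defining genes of other brain cells were at or near 0 in the tumours. CLDN5 of endothelium, TTR and OTX2 of the choroid plexus, and CX3CR1, P2RY12, AIF1 and C1QA of microglia had 0 counts in all 6. Summed over 9 endothelial markers the level was 2.28 to 3.43 CPM in primary and 3.88 to 7.46 CPM in recurrent tumours. FLT1, the highest of them on average, also stood at 2.12 CPM in the culture. Summed over 7 microglial markers it was 1.73 to 3.81 and 2.05 to 4.08 CPM. The 8 neuron markers summed to 28.4 to 32.9 CPM in primary and 37.1 to 45.7 CPM in recurrent tumours. The culture, scaled together with the tumours, held 30.7 CPM of SYT1, 21.0 of GAD1, 4.56 of NRGN and 0 of RBFOX3. This sum therefore does not measure host neurons alone. The 8 markers of ependyma and choroid plexus summed to 64.5 to 68.6 CPM in primary and 16.8 to 45.4 CPM in recurrent tumours. Nearly all of it was AQP1, which the culture also held at 29.5 CPM. AQP1 had 2, 1 and 459 counts in control replicates 1, 2 and 3, so this sum does not measure host tissue alone either. The part of these 2 lists in the values below was not tested. The 7 leptomeningeal markers summed to 31.2 to 48.7 and 35.9 to 42.8 CPM, of which 6 were under 1 CPM on average and FOXC1, also counted in the culture, made up most.

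Levels were compared between genes per kilobase of the longest coding transcript, on TMM-scaled CPM. TJP1 was the highest in all 6 tumours, with 49.8 to 98.6 CPM per kilobase. JUP (8.91 to 22.3), CGNL1 (12.9 to 16.2), DSG2 (10.0 to 13.7), DSP (5.87 to 13.9), PKP4 (6.24 to 9.82) and PKP2 (4.07 to 8.99) followed, and each overlapped the next in this order. CGN (0.647 to 1.77) and DSC2 (0.955 to 1.31) overlapped each other and lay below all of these. The order depends on the length used: with the median length of the coding transcripts JUP had a mean of 55.2 in place of 15.6, DSG2 20.1 in place of 11.9, CGN 11.2 in place of 1.30, and DSC2 had 2.82.

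The genes also differed in how much they varied from tumour to tumour, on the CPM scale. CGNL1, DSG2 and DSC2 were the steadiest, with a coefficient of variation of 9.21%, 10.1% and 11.5% over the 6 tumours. PKP2 (34.1%), JUP (28.7%), CGN (28.3%) and DSP, between PKP2 and JUP, varied most, with TJP1 (20.6%) and PKP4 (15.0%) between. These values span both tumour groups, and so contain the difference by which the genes were chosen.

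**Figure D2:**
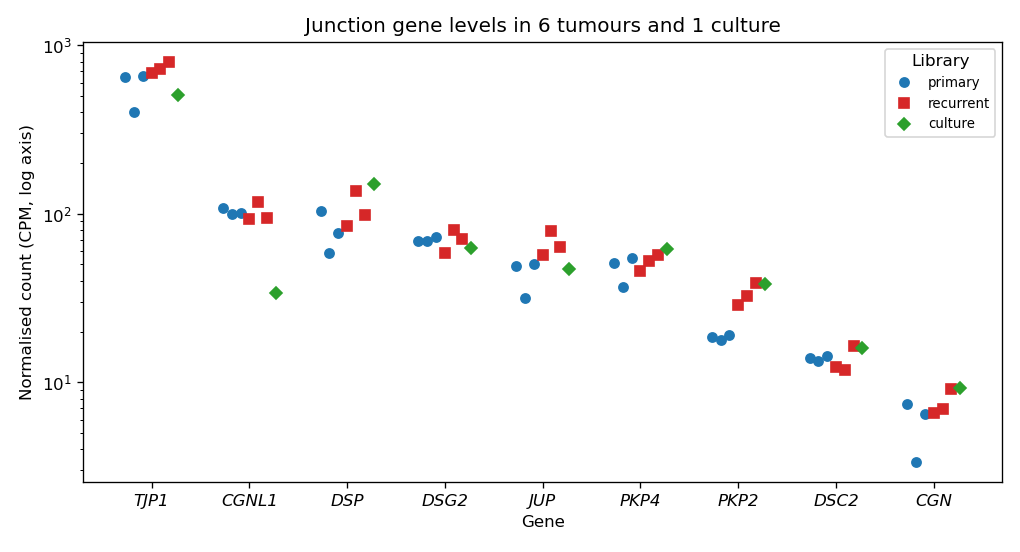
Normalised count (CPM scaled by TMM over the 7 libraries, log axis) of the 9 counted genes in 3 primary tumours (circles), 3 recurrent tumours (squares) and the culture (diamond); each point is 1 library. PKP2 has its recurrent points (28.6 to 39.0) above its primary ones (17.9 to 19.1) and near the culture (38.5), and CGNL1 has all tumours (93.2 to 118) above the culture (34.1).

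The first comparison asked how tumours regrown after LITT differed from tumours never ablated. PKP2, the plakophilin that recruits desmoplakin to the plaque, stood at 18.5, 17.5 and 18.9 CPM in the primary tumours. In the recurrent tumours it stood at 28.6, 32.3 and 38.7 CPM. The primary values lay close together and every recurrent tumour was higher, with means of 18.3 ± 0.710 and 33.2 ± 5.07 CPM (SD, n = 3 each), a ratio of 1.81 and a log2 fold change of 0.86 (SE 0.16). As the gene that chose the group, its values are a description. PKP4, its relative found at adherens junctions and desmosomes, stood at 50.4, 36.1 and 54.0 CPM in primary and 45.9, 52.0 and 56.7 CPM in recurrent tumours. Its groups overlapped, with a log2 fold change of 0.14 (SE 0.17).

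Plakoglobin (JUP), which sits in both desmosomes and adherens junctions, stood at 48.5, 31.2 and 49.8 CPM in primary tumours. In recurrent tumours it stood at 57.3, 78.0 and 62.6 CPM. All recurrent values were above all primary ones, with a log2 fold change of 0.61 (SE 0.20). Desmoplakin (DSP) stood at 102, 57.5 and 76.6 CPM in primary and 84.4, 136 and 97.6 CPM in recurrent tumours. These groups overlapped, with the lowest value in primary replicate 2 and the highest in recurrent replicate 2, and the log2 fold change was 0.43 (SE 0.23).

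The cadherins that these plaque proteins bind were level between the groups. DSG2 stood at 68.4, 67.6 and 71.9 CPM in primary and 58.4, 80.0 and 70.3 CPM in recurrent tumours, with a log2 fold change of 0.01 (SE 0.14). DSC2 stood at 13.9, 13.1 and 14.2 CPM in primary and 12.4, 11.8 and 16.2 CPM in recurrent tumours, with a log2 fold change of -0.03 (SE 0.18). The primary values were close together in both genes. The recurrent tumours lay on either side of them for DSC2, and for DSG2 1 was lower, 1 higher and 1 within the primary range.

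At the tight junction, ZO-1 (TJP1) stood at 641, 396 and 653 CPM in primary and 687, 717 and 784 CPM in recurrent tumours. The groups did not overlap, but recurrent replicate 1 and primary replicate 3 were close, and the log2 fold change was 0.37 (SE 0.20). Cingulin (CGN) stood at 7.35, 3.29 and 6.46 CPM in primary and 6.60, 6.94 and 9.02 CPM in recurrent tumours, with overlap and a log2 fold change of 0.40 (SE 0.32). Paracingulin (CGNL1) was level, at 107, 97.7 and 99.5 CPM in primary and 93.3, 117 and 93.5 CPM in recurrent tumours, with a log2 fold change of -0.002 (SE 0.14).

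**Figure D3:**
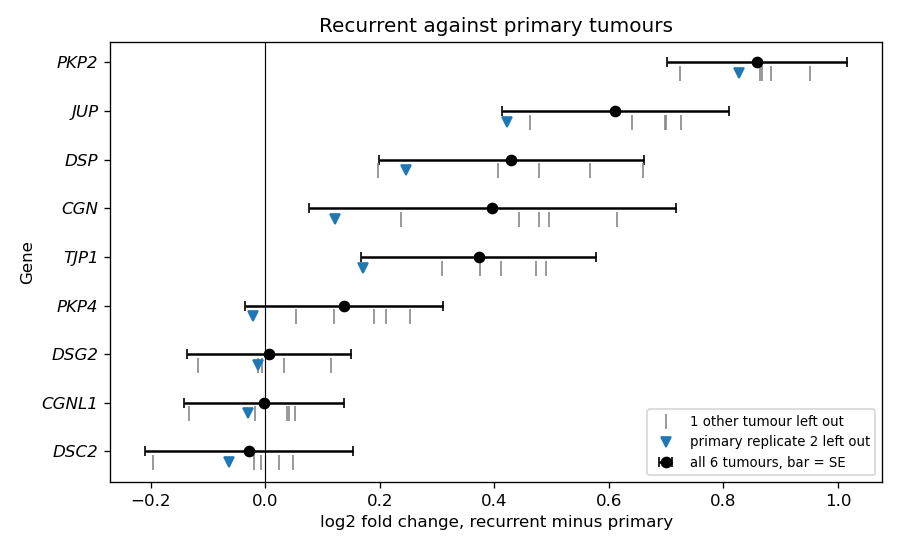
The log2 fold change of each gene between 3 recurrent and 3 primary tumours (dots, bars are the SE of edgeR's fit), with the values after leaving out primary replicate 2 (triangles) or any 1 of the other 5 tumours (ticks). PKP2 stays between 0.72 and 0.95, while JUP, DSP, CGN, TJP1 and PKP4 move toward 0 without primary replicate 2.

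Primary replicate 2 was the lowest of the 6 tumours for PKP2, PKP4, DSP, JUP, CGN and TJP1. Without it the log2 fold change was 0.83 for PKP2 and 0.42 for JUP, and it went to 0.25 for DSP, 0.17 for TJP1, 0.12 for CGN and -0.02 for PKP4. Its low RNA integrity number and high share of structural small RNA stand beside these values, and their part in them was not tested. DSP also depended on recurrent replicate 2, without which it was at 0.20. With the graft percentage as a covariate PKP2 was at 0.91 and JUP at 0.88. Recurrent replicate 1 is the 1 recurrent library whose name starts with the same letters as the primary ones. Against the 3 primary tumours it gave 0.63 for PKP2 and 0.40 for JUP, in a fit that takes this lone library to vary as the primary tumours do.

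Of the 9 tested genes 7 had a positive log2 fold change, with a median of 0.37 against -0.01 over the 15928 genes tested. The groups did not overlap in 3 of them (PKP2, JUP and TJP1), all higher in recurrent tumours, where 7.94% of all genes were higher without overlap, 7.42% were lower and 15.4% did not overlap in either direction. At an adjusted p under 0.05 edgeR called 0 of the 9 and 0.00628% of all genes. An unadjusted edgeR p under 0.05 was found for 2 of the 9 and for 1335 of the 15928 genes. Limma-voom called 0 of the 9, and DESeq2 called 1, PKP2, and 0.735% of all genes (0.427% higher). With no filter on low counts edgeR called PKP2 and JUP, where 1.36% of all genes passed and 0.752% were higher. Since results of this contrast led to the choice of these genes, nothing is read from these counts.

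Ratios within a library do not depend on scaling between libraries. Per kilobase, PKP2 stood to DSG2, the desmoglein of the same plaque, as 0.366, 0.352 and 0.357 in the primary tumours and as 0.664, 0.548 and 0.745 in the recurrent ones. The culture was at 0.835 and control replicate 3 at 0.246. PKP2 to PKP4 was 0.492, 0.653 and 0.470 in primary, 0.837, 0.834 and 0.916 in recurrent tumours and 0.836 in the culture. In both ratios the recurrent tumours were above the primary ones. In that to DSG2 they were below the culture, and in that to PKP4 they lay around it. JUP to DSG2 was 1.18, 0.769 and 1.16 in primary, 1.64, 1.63 and 1.48 in recurrent tumours and 1.25 in the culture, so that here the recurrent tumours were above the culture as well.

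**Figure D4:**
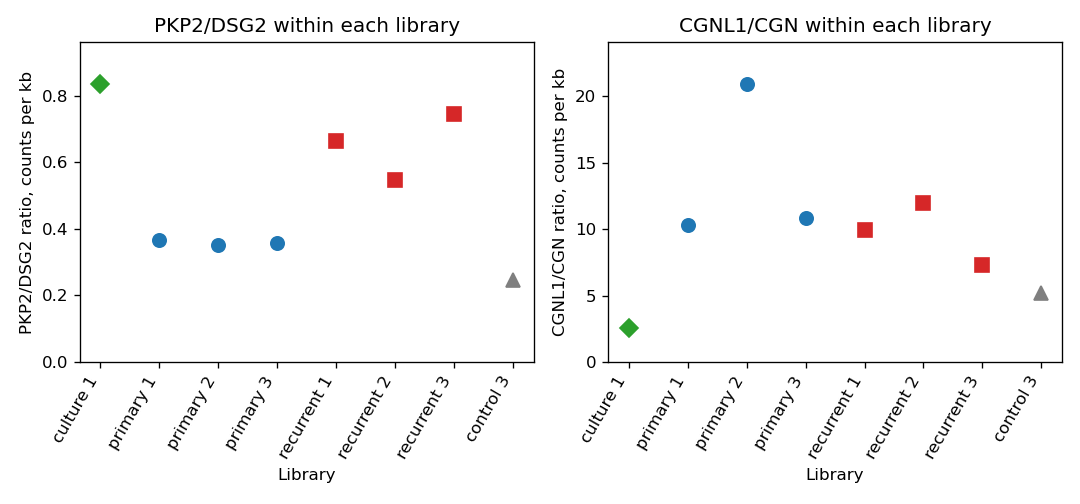
Ratio of counts per kilobase of the longest coding transcript within each library, for PKP2 to DSG2 (left) and CGNL1 to CGN (right), on axes from 0. The size of a ratio depends on the transcript lengths used. Each library is 1 point, with control replicates 1 and 2 left out for their few counts. Primary tumours sit together at 0.352 to 0.366 in the left panel under the recurrent tumours and the culture, and all 6 tumours are above the culture, at 2.60, in the right panel.

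Other genes of these junctions were described from fixed lists. Of 10 further desmosome genes 4 passed the filter, all with positive log2 fold changes (median 0.27). EdgeR, DESeq2 and limma-voom each called 0 of them, and 0 had an unadjusted edgeR p under 0.05. Periplakin (PPL), a plakin of epithelia, differed by 0.65 (SE 0.37) and plakophilin 3 (PKP3) by 0.39 (SE 0.24). KAZN, which encodes the periplakin-binding protein kazrin, had the highest mean CPM of the list and differed by 0.01 (SE 0.23). PKP1 and DSG4, both of skin, had 0 counts in all 6 tumours.

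Of 36 further tight junction genes 26 passed the filter, 18 with a positive and 8 with a negative log2 fold change (median 0.09). EdgeR and limma-voom called 0, and DESeq2 called 1 (MAGI1). An unadjusted edgeR p under 0.05 was found for 5 of the 26 and for 1335 of all 15928 genes tested. The DESeq2 call stands beside 0.735% of all genes called. The groups did not overlap for occludin (OCLN), MAGI1 and CXADR, 3 of the 26, all higher in recurrent tumours, where 7.94% of all genes were higher without overlap. MAGI1, a membrane-associated guanylate kinase scaffold, stood at 25.2, 20.4 and 24.2 CPM in primary and 33.1, 41.1 and 35.1 CPM in recurrent tumours (log2 fold change 0.65, SE 0.15; edgeR adjusted p = 0.406). OCLN, a membrane protein of the junction strand, stood at 4.85, 6.04 and 6.19 CPM in primary and 7.11, 10.9 and 12.3 CPM in recurrent tumours (0.83, SE 0.26; edgeR adjusted p = 0.521). The genes of highest mean CPM, the ZO-1-associated factor YBX3 (0.06, SE 0.14) and the PDZ scaffold MPDZ (0.09, SE 0.13), were level.

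OCLN, MAGI1 and CXADR, the coxsackievirus and adenovirus receptor, were the nearest to PKP2 in their pattern over the 6 tumours among 47 other junction genes. Since PKP2 was chosen for its higher level in recurrent tumours, genes near it share that difference by construction. Their root mean square difference from PKP2 was 0.165, 0.182 and 0.258 on the log2(CPM + 1) scale, each gene centred on its own mean. JUP was next at 0.265 and TJP1 at 0.298. The adherens junction list, which holds the catenins, had 9 of 10 genes tested, 6 positive and 3 negative (median 0.27). EdgeR, DESeq2 and limma-voom each called 0, and 0 had an unadjusted edgeR p under 0.05. Its 2 genes of smallest p were vinculin (VCL, 0.28, SE 0.17), which links junctions to actin, and the p120 catenin gene CTNND1 (0.33, SE 0.20). VCL was the 1 gene of the 9 whose groups did not overlap, higher in recurrent tumours. Of all genes 7.94% were higher without overlap and 15.4% did not overlap in either direction, so nothing is read from this. CTNNA1, the alpha-catenin with VCL among the most abundant of the list, was at 0.08 (SE 0.15).

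The second comparison set the 6 tumours against the culture of the same line. It rests on 1 culture library and has no test. CGNL1 was the gene that differed most: the culture stood at 34.1 CPM, and the tumours at 108, 99.8 and 101 CPM (primary) and 93.2, 118 and 94.3 CPM (recurrent). The lowest tumour was far above the culture, the mean ratio was 3.00, and the difference of 1.55 on the log2(CPM + 1) scale was above that of 99.0% of the 19306 genes compared. In bulk RNA, a change in the number of cells of a kind and a change in RNA per cell cannot be told apart.

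Cingulin, its relative, lay on the other side. CGN stood at 9.26 CPM in the culture and at 3.36 to 9.10 CPM in the tumours, a difference of -0.46. The ratio of CGNL1 to CGN per kilobase was therefore 2.60 in the culture, 10.3, 20.9 and 10.9 in the primary and 9.95, 11.9 and 7.30 in the recurrent tumours. Every tumour was above the culture, and the highest ratio, in primary replicate 2, came with its low CGN. The size of this ratio rests on the longest coding transcript, 5.09 kb for CGN. The median coding length is 0.589 kb for CGN and unchanged for CGNL1, and would make every ratio smaller. The order of the libraries does not depend on the length.

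Desmoplakin was also higher in the culture than in each tumour, at 151 CPM against 58.7 to 137 CPM (difference -0.74). PKP4 likewise stood at 61.8 CPM against 36.8 to 57.2 CPM (difference -0.33). For PKP2 the culture, at 38.5 CPM, was above all 3 primary tumours (17.9 to 19.1 CPM) and within the recurrent range (28.6 to 39.0 CPM), a difference of -0.61 over all 6. The culture was within the tumour range for DSG2, at 62.4 CPM (0.16), DSC2, at 16.0 CPM (-0.22), JUP, at 46.7 CPM (0.18), and TJP1, at 507 CPM (0.33).

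Only CGNL1 of the 9 was past 2-fold with the culture outside the tumour range, where 8.1% of all genes were, 3.05% with the tumours higher and 5.05% with them lower. Of 5 further desmosome genes compared PPL was past it, lower in the tumours. Of 30 tight junction genes TJP3, OCLN and ARHGEF2 were past it and lower in the tumours, and LSR was past it and higher. ARHGEF2, whose protein cingulin binds, stood at a difference of -1.11. OCLN stood at 20.0 CPM in the culture, above every tumour, with a difference of -1.29. None of 10 adherens junction genes was past it.

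**Figure D5:**
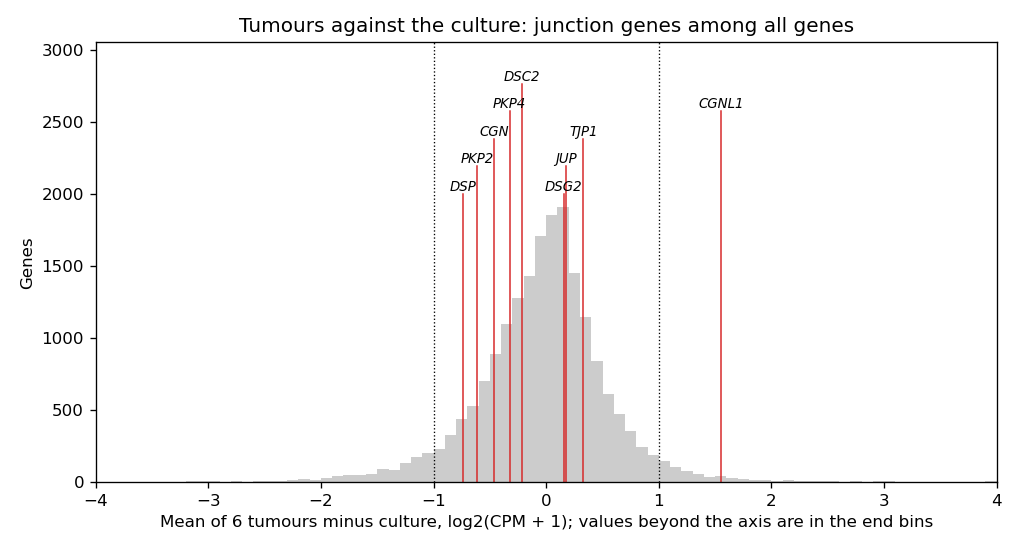
Number of genes (grey) by the difference between the mean of the 6 tumours and the culture in log2(CPM + 1), with the 9 counted junction genes marked; dotted lines are the 2-fold bounds. CGNL1 stands at 1.55, apart from the other 8, which lie between -0.74 and 0.33.

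The last comparison set the tumours against the libraries labelled as controls, which the study itself kept out of its test. Control replicate 3 held markers of the implanted line at levels near those of the tumours. On the scale of the 9-library fit it had 1873 CPM of VIM, 1317 CPM of CD44 and 1070 CPM of NES, and its counts for the 8 markers of the line came to 26663, against 135 and 866 in control replicates 1 and 2. It is therefore not a background free of the line. Control replicates 1 and 2 gave few: 5 and 7 counts for PKP2, 25 and 32 for DSP, 8 and 15 for DSG2, 14 and 28 for PKP4, 2 and 5 for CGNL1 and 20 and 82 for TJP1. JUP, DSC2 and CGN had 0 in control replicate 1 and 13, 8 and 2 in control replicate 2. Control replicate 3, with the highest graft percentage of the controls, gave 56 for PKP2, 549 for DSP, 170 for JUP, 162 for CGNL1 and 2300 for TJP1. Each of these 9 genes had at least 78 counts in every tumour.

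On the TMM scale of this fit, the median difference of the 9 genes, tumours minus controls, was -0.13. Over the 16389 genes tested it was 0.21 (0.04 with DESeq2). TMM multiplied the library totals by 0.0962 and 0.194 in control replicates 1 and 2 and by 1.39 in control replicate 3. In the tumours the factors were 1.68 to 1.91. This raises the CPM of control replicates 1 and 2 above values scaled by library total, so differences from those controls depend on the scaling. CGNL1 was higher in the tumours, at 53.6 to 57.9 CPM (primary) and 50.6 to 63.7 CPM (recurrent) against 15.3, 15.2 and 28.1 CPM in the controls, on the scale of this 9-library fit. Every tumour was above every control, with a log2 fold change of 1.26 (SE 0.31) and an edgeR adjusted p = 0.0353. It was the 1 gene called of 9, where edgeR called 5.42% of all genes and 0.927% as higher in tumours. The call was lost when any 1 of the 6 tumours was left out (adjusted p from 0.0718 to 0.0893) and without control replicate 2 (0.0938), with fold changes of 1.14 to 1.33.

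DSP lay the other way, at 32.1 to 74.1 CPM in the tumours against 191, 97.1 and 95.2 CPM in the controls, with a log2 fold change of -1.29 (SE 0.35) and an edgeR adjusted p = 0.0534. On this scale every control was above every tumour, but the order depends on the scaling. DSP had 25 of 1358753 counts in control replicate 1 and 32 of 1702196 in control replicate 2. Primary replicate 2, the lowest tumour, had 1362 of 25316552. As a share of the library total, control replicates 1 and 2 were therefore below every tumour. With control replicate 3 as the only control it was -0.92 (edgeR adjusted p = 0.143), in a fit that takes that library to vary as the tumours do. DESeq2 gave -1.54 (adjusted p = 0.0016), where it called 8.45% of all genes, 0.848% higher and 7.6% lower in the tumours. RLE scaling, no filter on low counts, and leaving out control replicate 3 also took it past the threshold. With RLE scaling edgeR called 883 of 16389 genes. Without control replicate 3, which leaves the 2 controls of few counts, it called 2644 of 17223 genes. PKP4 was at -1.16 (SE 0.41; edgeR adjusted p = 0.145), with 107 and 85.0 CPM in control replicates 1 and 2 against 26.7 CPM in control replicate 3 and 20.1 to 30.7 CPM in the tumours. With control replicate 3 alone it was 0.02. It passed in DESeq2, without control replicate 3, and with no filter on low counts, where 6.94% of all genes passed, 1.14% higher and 5.81% lower. The other 6 genes lay between -0.48 and 0.36, with edgeR adjusted p from 0.320 to 0.980.

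The marker lists of host brain held counts in these controls, but not all of their genes were of the host alone. The 8 neuron markers had 508, 279 and 362 counts in control replicates 1, 2 and 3, led by RBFOX3 (307, 196 and 212). GAD1 (0, 3 and 33) and NRGN (1, 0 and 17) were highest in control replicate 3, and the culture also held them. Of the 7 leptomeningeal markers, CDH1 had 22, 10 and 0 counts in the controls, ALDH1A2 had 0, 1 and 2, and 4 had 0. FOXC1, also counted in the culture, had 3, 2 and 192. All 5 further desmosome genes tested were lower in the tumours (median -2.53). PERP of that list stood at 15.3, 12.1 and 0 CPM in control replicates 1, 2 and 3. The keratin KRT7 stood at 184, 72.9 and 0.347 CPM. EdgeR called neither. Of the tight junction list 13 genes were higher and 13 lower in the tumours, and of the intermediate filament list 4 and 5. The part of host RNA in the levels of DSP, PKP4 and these genes in the controls was not tested. Of the other junction lists edgeR called KAZN, MAGI2 and CTNND2, 1 gene of each list, all higher in the controls, with log2 fold changes of -3.73, -4.31 and -4.51, where 4.5% of all genes were lower in the tumours. These folds came mainly from control replicates 1 and 2: KAZN stood at 483, 69.8 and 16.3 CPM in the controls, MAGI2 at 452, 140 and 15.3 CPM and CTNND2 at 973, 267 and 25.1 CPM. With control replicate 3 as the only control the log2 fold changes were -0.45, -0.77 and -0.48, with edgeR adjusted p of 0.498, 0.133 and 0.476.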

How the data were processed

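RNA was measured in 10 libraries. Groups were taken from each sample's treatment label. STAR, Salmon 1.10.3, DESeq2 and GRCh38 are named per the submitters' processing notes, without roles. The annotation release, and which xengsort read classes entered the counts, were not given in the sources used here. The authors deposited estimated counts per gene, not scaled between libraries, which were rounded before each test. Of 62754 gene IDs, 58261 matched GENCODE release 29, the source of positions, transcript lengths and sequences.

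Recurrent and primary tumours, and the 6 tumours and 3 controls, were tested by the quasi-likelihood method of edgeR 4.0.16 under R 4.3.3 (TMM, the tool's default filter on low counts, two-sided, Benjamini-Hochberg adjustment over all tested genes, threshold 0.05). The recurrent-primary fit was also run on simulated counts with the same spread for every gene, and no result here rests on that run. SE is the log2 fold change divided by the square root of F. The culture is 1 library and had no test: a gene counted as different where the culture lay outside the range of the 6 tumours and differed from their mean by at least 1 in log2(CPM + 1). Alternatives were DESeq2 1.42.0, limma-voom 3.58.1, other scalings, filters and left-out libraries.

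The members and the other gene lists were chosen with earlier results of these data known. Genes named from the other lists were, per list, the highest 2 by mean CPM and the 2 with the smallest edgeR p, and the 3 nearest to PKP2. Genes past the fold against the culture, or whose groups did not overlap, and genes named for their place on chromosome 18 or their likeness in sequence, were named after their values were seen. Marker lists of neurons, microglia, endothelium, ependyma and choroid plexus, and leptomeninges checked for host RNA. Some of these genes were also counted in the culture. A further host marker list is not reported here.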

Additional observations from a re-analysis of the deposited data

How the results depend on the processing

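Between recurrent and primary tumours 1 gene of the whole table passed edgeR, which became 411 with no filter on low counts, 117 in DESeq2, 13 in the 3 primary tumours and recurrent replicate 1 alone, 0 with the graft percentage as a covariate, 0 in limma-voom and 0 to 23 with 1 tumour left out; at an unadjusted p under 0.05 edgeR had 1335 genes, or 1152 with the graft percentage, and limma-voom 1412. Of the junction genes 0 passed, or 2 (PKP2 and JUP) with no filter and 1 in DESeq2. Between tumours and controls 889 genes passed, which became 2125 with no filter, 1385 in DESeq2, 389 to 2644 with 1 library left out (the extremes without control replicates 1 and 3) and 380 without control replicates 1 and 2, an alternative chosen after seeing the data. Of the junction genes 1 passed, or 2 with RLE scaling, 3 with no filter, 3 in DESeq2 and 0 to 3 with 1 library left out. Against the culture 1563 genes were past the fold, or 2671 with a pseudocount of 0.25, and CGNL1 was the 1 junction gene at each setting.

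Tumour-control differences of 6 genes changed sign, most of them small; PKP4 was at -1.16 with all 3 controls. JUP, at 0.04, was at -0.0499 in DESeq2, -0.0622 with RLE scaling, -0.00245 without control replicates 1 and 2, and -0.12 to 0.23 with 1 library left out. Without control replicates 1 and 2, PKP2 was at 0.49, PKP4 at 0.0210, DSC2 at 0.00726 and TJP1 at -0.18. With 1 library left out PKP2 ran from -0.93 to 0.24, DSC2 from -1.13 to 0.12 and CGN from -0.235 to 0.0387. The cause was not tested. The few counts of control replicates 1 and 2 limit what can be seen in the controls, and 3 tumours a group limit the contrast of recurrent and primary tumours. No paired analysis was made, as the labels used here link no primary tumour to a recurrent one. The labels give no replicate numbers, so those used here only tell the libraries apart.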

Other observations

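The intermediate filament list held genes of these filaments, the class of fibre that desmoplakin anchors, and a filament-binding plakin. Their levels in the tumours ranged widely. VIM had the highest mean CPM, and 1 of the 10 genes averaged under 1 CPM. Of 10 genes 9 were tested between recurrent and primary tumours, 6 with a positive and 3 with a negative log2 fold change (median 0.18). EdgeR and limma-voom called 0, and DESeq2 called 1 (GFAP), where it called 0.735% of all genes. An unadjusted edgeR p under 0.05 was found for 2 of the 9 and for 1335 of all 15928 genes tested. The simple-epithelial keratins KRT8 and KRT18 stood at 490 to 687 CPM and 91.5 to 130 CPM in the 6 tumours, and at 431 and 130 CPM in the culture, on the 7-library scale. These genes, and those below, were named after their values were seen, apart from VIM, NES and GFAP. On the scale of the 6 tumours, VIM stood at 3478, 3790 and 3731 CPM in primary and 3083, 2978 and 2693 CPM in recurrent tumours (log2 fold change -0.33, SE 0.13), without overlap. GFAP was also lower without overlap (-0.81, SE 0.17), as were 7.42% of all genes, while plectin (PLEC), a plakin that binds filaments, was at 0.39 (SE 0.24).

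Against the culture GFAP, NES and KRT19 were past 2-fold, each higher in the tumours (differences of 1.63, 1.20 and 1.58), where 8.1% of all genes were past it. Claudins were few: CLDN1, CLDN4 and CLDN12 stood at 17.8 to 36.1, 9.95 to 24.0 and 12.8 to 19.5 CPM, and CLDN5 and CLDN10 had 0 counts in all 6 tumours, as did CRB3, a Crumbs polarity gene.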
